A study of Saccharomyces cerevisiae with 59 samples.

Results

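PEP4, PRB1, PRC1, CPS1 and APE3, 5 of the 6420 genes in the files, encode major proteolytic enzymes of the yeast vacuole. They were followed across libraries made from decreasing amounts of the same kind of RNA. The genes were chosen by name and systematic identifier, not by their values. The RNA was extracted in bulk from spheroplasts, cells stripped of their wall, of the Saccharomyces cerevisiae laboratory strain S288C grown from a single clone and starved of amino acids. It was diluted to 6 input amounts, with 10 libraries each of 5 pg, 10 pg and 20 pg, 7 of 100 pg, 8 of 1 ng and 9 of 10 ng, and each dilution was made into a library with the full-length protocol the study used for single yeast cells. The labels of 5 further libraries, called H6P, give no input amount, and these are described library by library without a comparison. All groups carried the same strain and the same starvation, and no unstarved sample was analysed here. By their labels the groups differ only in the amount of input RNA. By the paper's methods the dilution of the added spike-in RNA also changed with that amount. Whether libraries of 1 amount stem from different cultures is not given in the labels, and the p-values then cover the spread among libraries alone, which may be technical.

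The vacuole is the degradative compartment of yeast, and its proteases break down proteins delivered by autophagy and endocytosis so that amino acids can be used again, a process on which starved cells depend. Most of these enzymes are made as inactive precursors that travel through the secretory pathway and are cut to their active form in the vacuole. PEP4 encodes proteinase A, the aspartyl protease that starts this activation, and PRB1 encodes proteinase B, a serine protease that continues it. PRC1 encodes carboxypeptidase Y and CPS1 carboxypeptidase S, which remove amino acids from the C-terminal end of peptides, and APE3 encodes aminopeptidase Y, which removes them from the N-terminal end.

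In the R64 genome build, PEP4 (YPL154C) lies on the minus strand of chromosome XVI at 259714 to 260931, and PRB1 (YEL060C) lies on the minus strand of chromosome V at 40046 to 41953. PRC1 (YMR297W) lies on the plus strand of chromosome XIII at 861922 to 863520, CPS1 (YJL172W) on the plus strand of chromosome X at 97737 to 99467, and APE3 (YBR286W) on the plus strand of chromosome II at 774700 to 776313. The coding lengths were 1218, 1908, 1599, 1731 and 1614 nt in the order PEP4, PRB1, PRC1, CPS1 and APE3, against a median of 1200 nt over 5980 protein-coding genes. No annotated gene overlapped any of the 5, but these spans hold the coding sequence alone, and the libraries carry no strand information. The nearest gene past the end of CPS1, TOH1, lies 236 bases away on the opposite strand. Whether reads of neighbouring transcripts entered the counts was not tested.

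The sequences before the 5 genes shared one element that the choice of genes did not use. The letters GATAAG on either strand, the core bound by the GATA factors of nitrogen regulation in yeast, were present in the 300 bases before the start codon of 5 of 5 genes, against 14.6% of 6020 genes with a window of that length. Within 250 bases they were present in 3 of 5, against 12.5% of genes, since the matches of PEP4 and APE3 began 290 and 299 bases before the start codon. The letters AGGGG, the core of the stress response element bound by Msn2 and Msn4, were present in 4 of 5 windows of 300 bases (not in that of PEP4), against 22.2% of genes. The letters TGACTC, the core of the site of Gcn4, the main activator under amino acid starvation, were present in 0 of 5 windows, against 7.74% of genes. These matches are a description of the letters and not of bound sites, and the search was made on the R64 reference. The 60 bases of each window that hold the GATAAG match are printed to show the shared letters, 5′ to 3′ on the coding strand, with GATAAG or its reverse complement CTTATC in capitals; that of CPS1 holds a pair of overlapping matches.
PEP4, chrXVI:261172-261231, minus strand: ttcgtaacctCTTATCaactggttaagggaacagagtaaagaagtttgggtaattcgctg
PRB1, chrV:42105-42164, minus strand: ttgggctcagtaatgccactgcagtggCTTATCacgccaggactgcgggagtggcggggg
PRC1, chrXIII:861756-861815, plus strand: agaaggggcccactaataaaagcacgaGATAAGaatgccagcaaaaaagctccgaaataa
CPS1, chrX:97529-97588, plus strand: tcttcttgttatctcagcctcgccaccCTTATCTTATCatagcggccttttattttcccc
APE3, chrII:774400-774459, plus strand: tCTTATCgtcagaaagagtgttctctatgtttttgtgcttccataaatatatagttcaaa

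Each of the 54 grouped libraries held between 290434 and 2452562 gene counts, and counts were scaled to an equal gene total per library and are given as CPM. The mating-type check on these libraries gave 208001 counts for 4 genes of alpha cells, 564 for 7 genes of a cells and 3129 for 3 genes of sporulating diploids. In several amounts the libraries numbered 1 to 4 differed from those numbered above 4 in composition, a split taken from an earlier analysis of these data, and at 100 pg the glycolytic genes held 55.5% ± 2.19 (SD, n = 4) of the counts in the former and 28.2% ± 2.45 (SD, n = 3) in the latter. Where the ranges of a gene in these sets did not overlap, the values of both are given.

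At 10 ng the transcripts stood in a fixed order, PRC1, APE3, PEP4, PRB1 and CPS1. Per kilobase of coding sequence, PRC1 had a mean of 1666 ± 270.4 CPM (SD, n = 9), APE3 722 ± 112, PEP4 461 ± 70.9, PRB1 33.3 ± 12.5 and CPS1 6.28 ± 4.10. The 5 together held 0.446% ± 0.0638 (SD, n = 9) of the gene counts. PRC1 had the highest level per kilobase of the 5 in every library of 10 pg and above. At 5 pg it did so in 6 of 10 libraries, while APE3 led in 3 and PRB1 in 1. The summed level of the 5 had a mean of 5238 ± 4712 CPM (SD, n = 10) at 5 pg against 4465 ± 638 CPM (SD, n = 9) at 10 ng, with a spread that ran from 685 to 16817 CPM among the 5 pg libraries.

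**Figure D1:**
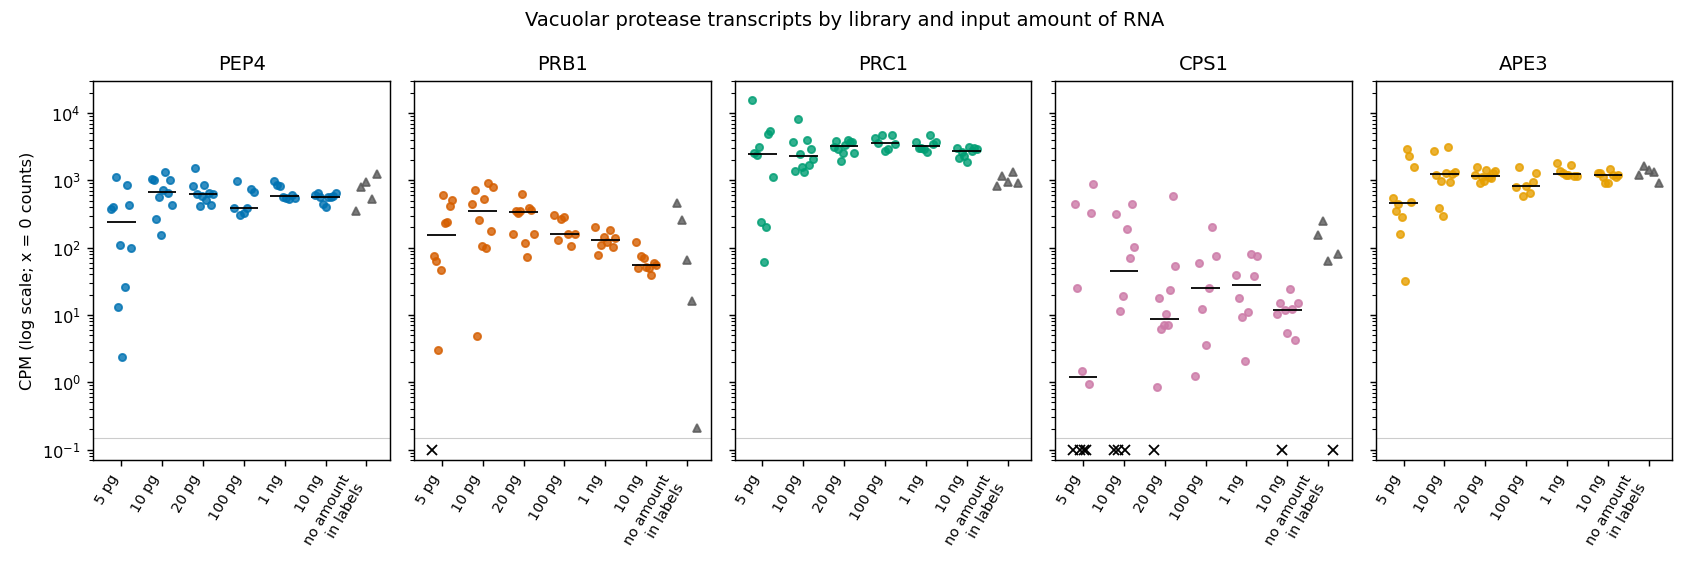
CPM of each of the 5 transcripts in every library, on a log scale, by input amount of RNA; circles are grouped libraries, triangles the H6P libraries without an amount, horizontal lines group medians and crosses libraries with 0 counts. PRC1 stays between 1901 and 4754 CPM from 20 pg upward, PRB1 has its lowest median at 10 ng, 55.3 CPM, and CPS1 is at 0 counts in 4 of 10 libraries of 5 pg.

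PEP4, which starts the activation of the other hydrolases, had 398 CPM in the lowest, 573 in the median and 654 in the highest library of 10 ng. At 1 ng the lowest, median and highest libraries had 522, 581 and 969 CPM, and at 100 pg they had 303, 396 and 984 CPM. At 20 pg these values were 411, 637 and 1515 CPM, at 10 pg 156, 679 and 1315 CPM, and at 5 pg 2.37, 245 and 1130 CPM. The 5 pg libraries thus reached both above and below those of 10 ng, with 2 of 10 above the highest, 7 below the lowest and 1 within. The means ran from 344 ± 385 CPM (SD, n = 10) at 5 pg to 715 ± 375 CPM (SD, n = 10) at 10 pg, and no gap between neighbouring means in their order exceeded the larger SD of the pair. At 100 pg the 4 libraries numbered 1 to 4 had 303 to 396 CPM and the 3 numbered above 4 had 665 to 984 CPM, without overlap.

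PRB1, the activating serine protease, had means of 406, 291, 202, 136 and 63.4 CPM from 10 pg up to 10 ng, lower at each larger input, an order that only CPS1 among the other 4 genes shared. Coding length averaged over the counts of a library was also shorter at larger inputs. It was 1446 ± 112 nt (SD, n = 10) at 10 pg and 1057 ± 55.3 nt (SD, n = 9) at 10 ng. PRB1 and CPS1, of 1908 and 1731 nt, are the longest of the 5 genes, and a link to length was not tested. The lowest, median and highest libraries had 39.0, 55.3 and 120 CPM at 10 ng, 78.9, 131 and 206 CPM at 1 ng, and 106, 161 and 304 CPM at 100 pg. They had 71.9, 336 and 636 CPM at 20 pg, 4.87, 350 and 923 CPM at 10 pg, and 0, 156 and 606 CPM at 5 pg. Above the highest library of 10 ng lay 5 of 8 libraries of 1 ng, 6 of 7 of 100 pg, 8 of 10 of 20 pg, 7 of 10 of 10 pg and 5 of 10 of 5 pg. The mean at 1 ng, 136 ± 42.4 CPM (SD, n = 8), exceeded that at 10 ng, 63.4 ± 23.8 CPM (SD, n = 9), by more than the larger SD, the only such gap between neighbouring means among the 5 genes. The library sets did not overlap at 5 pg, with 0 to 62.7 CPM in libraries 1 to 4 and 74.7 to 606 CPM in the others, nor at 100 pg, where the order was the opposite, with 161 to 304 CPM in libraries 1 to 4 and 106 to 159 CPM in the others.

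PRC1, which encodes carboxypeptidase Y, was the most abundant of the 5. Its lowest, median and highest libraries had 1901, 2741 and 3122 CPM at 10 ng, 2689, 3217 and 4695 CPM at 1 ng, and 2731, 3557 and 4754 CPM at 100 pg. The same values were 1953, 3208 and 3940 CPM at 20 pg, 1348, 2267 and 8269 CPM at 10 pg, and 61.5, 2465 and 15887 CPM at 5 pg. Medians from 5 pg to 10 ng thus lay between 2267 and 3557 CPM, while the range widened sharply below 20 pg. The highest value, in 5 pg library 1, was 94.5% of the summed CPM of the 5 genes in that library.

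CPS1, which encodes carboxypeptidase S, was the scarcest. At 10 ng its lowest, median and highest libraries had 0, 11.8 and 24.1 CPM, at 1 ng 2.05, 27.6 and 81.6 CPM, and at 100 pg 1.23, 24.8 and 206 CPM. At 20 pg they had 0, 8.66 and 583 CPM, at 10 pg 0, 44.9 and 445 CPM, and at 5 pg 0, 1.201 and 877 CPM. The mean at 5 pg, 168 ± 297 CPM (SD, n = 10), was above that at 10 ng, 10.9 ± 7.10 CPM (SD, n = 9), whereas the median was below it. This mean rested on libraries 8, 9 and 10, which had 332, 877 and 441 CPM. The remaining 7 libraries had at most 25.4 CPM.

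APE3, the aminopeptidase, had 902, 1208 and 1479 CPM in the lowest, median and highest libraries of 10 ng, 1164, 1247 and 1784 CPM at 1 ng, and 591, 820 and 1556 CPM at 100 pg. At 20 pg it had 903, 1181 and 1595 CPM, at 10 pg 295, 1225 and 3099 CPM, and at 5 pg 32.3, 462 and 2925 CPM. No library of 5 pg lay within the range of the 10 ng libraries, 3 of 10 being above it and 7 below. As for PEP4, the 100 pg libraries numbered 1 to 4, with 591 to 820 CPM, did not overlap those numbered above 4, with 958 to 1556 CPM.

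The spread between libraries of an amount was smaller at 10 ng than at 5 pg for all 5 genes, and for PEP4, PRC1 and APE3 it lay below the median of genes above 50 CPM at every amount. That set was not matched for level, and at 10 ng PEP4, PRC1 and APE3 had means of 561, 2664 and 1165 CPM. How far their level accounts for the lower spread was not tested. The coefficient of variation at 5 pg was 112% for PEP4, 101% for PRB1, 131% for PRC1 and 110.0% for APE3, against a median of 211% over the 1978 genes with a mean of at least 50 CPM. At 20 pg PRC1 and APE3 varied by 20.9% and 17.7%, against a median of 98.9%. At 10 ng the coefficients were 15.4% for PEP4, 16.2% for PRC1 and 15.6% for APE3, below the lower quartile of 20.7%, whereas PRB1 had 37.6%, above the upper quartile of 34.0%. CPS1 had 177% at 5 pg and 254% at 20 pg, where library 8 alone had 583 CPM and the next highest 53.9 CPM.

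**Figure D2:**
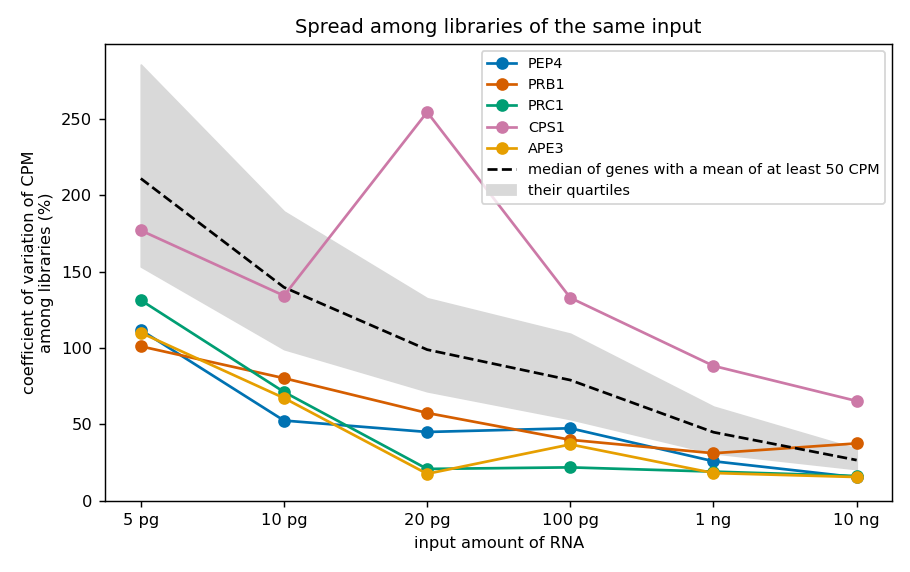
Coefficient of variation of CPM among the libraries of each input amount (percent) for the 5 transcripts, with the median (dashed) and quartiles (grey) of all genes with a mean of at least 50 CPM at that amount. PEP4, PRC1 and APE3 lie below the dashed line at every amount, and CPS1 peaks at 254% at 20 pg.

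A transcript was called detected with at least 5 counts. PRC1 and APE3 were detected in all 54 libraries, PEP4 in all but 1 library of 5 pg, and PRB1 in 8 of 10 libraries of 5 pg, 9 of 10 of 10 pg and all larger inputs. For comparison, 16.8% of the 1177 genes with a mean of at least 50 CPM at 10 ng were detected in every 5 pg library and 99.6% in every 10 ng library. These genes were not matched for level, and at 10 ng PRC1, APE3 and PEP4 had means of 2664, 1165 and 561 CPM. CPS1 was detected in 4 of 10 libraries at 5 pg, 7 of 10 at 10 pg, 8 of 10 at 20 pg, 5 of 7 at 100 pg, 6 of 8 at 1 ng and 8 of 9 at 10 ng. Depth bears on these counts for CPS1. Thinned to the 290434 counts of the shallowest library, the expected numbers of libraries were 3.92, 5.94, 3.77, 4.14, 4.83 and 2.41, so the share at 10 ng was above that at 5 pg as sequenced and below it at equal depth.

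The make-up of the group varied among the libraries as well, most at 5 pg. PRC1 accounted for 52.3% to 63.3% of the summed CPM of the 5 genes in the 10 ng libraries and for 6.03% to 94.7% in the 5 pg libraries. In 5 pg library 5 PRB1 held 86.3% of the sum, and in 5 pg library 6 APE3 held 86.2%. The ratio of PRC1 to APE3 per kilobase had a median of 2.40 at 10 ng, with a range of 1.74 to 2.75, and a median of 3.73 at 5 pg, with a range of 0.0705 to 29.2. Across the 54 libraries, which share the protocol and one source condition, the levels of PEP4 and APE3 had a Spearman correlation of 0.56, and the other 9 pairs ran from -0.145 to 0.213. After subtraction of each amount's mean log2(CPM + 1), with the deviations of all 54 libraries ranked together, PEP4 and APE3 had 0.501 and PEP4 and PRC1 0.40. For these deviations the order of the pairs differed in the 17 libraries of 1 ng and 10 ng. There PRC1 and APE3 had 0.62, PEP4 and APE3 0.56 and PRC1 and CPS1 0.54.

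**Figure D3:**
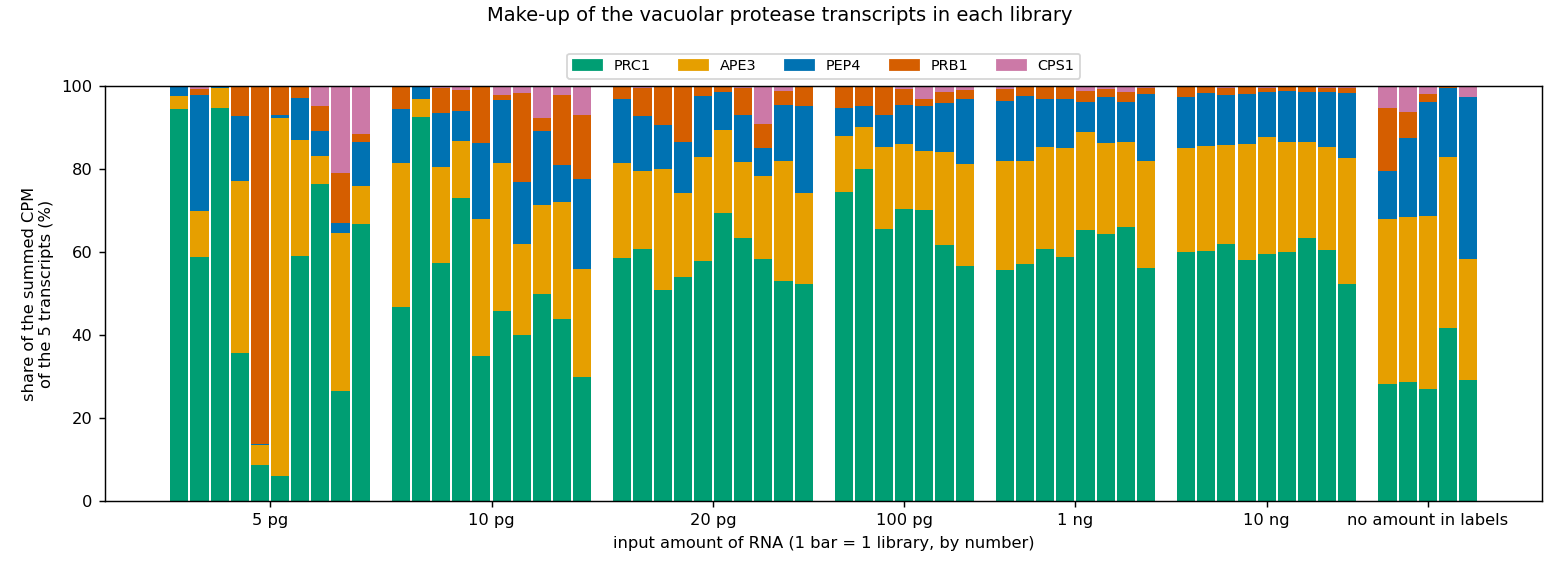
Share of each transcript in the summed CPM of the 5 (percent); each bar is 1 library, ordered by library number within its input amount, with the H6P libraries at the right. The bars of 10 ng are nearly alike, with PRC1 at 52.3% to 63.3%, and those of 5 pg range from 6.03% to 94.7% PRC1.

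Differences between amounts were tested with edgeR's quasi-likelihood test on the counts. Log2 fold changes are of the lower over the higher input, after subtraction of the median of the genes tested, and the SE and the Benjamini-Hochberg adjusted p belong to the fold change before it. In 5 pg against 10 ng, 2 of 5 genes passed an adjusted p of 0.05, both higher at 5 pg, where 30.8% of the 3492 genes tested passed, 23.1% in that direction and 7.65% in the other. PRB1 was higher by 2.10 ± 1.23 (SE, adjusted p = 0.0245), with 5 of 10 libraries above the highest of 10 ng and 2 below the lowest. CPS1 was higher by 2.97 ± 1.64 (SE, adjusted p = 0.0336), with 4 of 10 libraries above the highest of 10 ng. The values were 0.13 for PRC1 (adjusted p = 0.068), -1.38 for PEP4 (adjusted p = 0.839) and -0.96 for APE3 (adjusted p = 0.502). The median fold change subtracted was 1.64, and both calls depended on it: with scaling that set the median to 0, the adjusted p was 0.173 for PRB1 and 0.14 for CPS1, and the split of the genes called went from 807 higher and 267 lower to 247 higher and 569 lower. In an exact permutation test of log2(CPM + 1), a test added after the data were seen, the differences were 0.32 for PRB1 (p = 0.766) and 0.22 for CPS1 (p = 0.892), and within libraries 1 to 4 the edgeR values were -0.45 for PRB1 and -0.0019 for CPS1, with PRB1 passing in the libraries above 4 (adjusted p = 0.0344). The same exact permutation test gave PEP4 a difference of -2.16 (p = 0.0254, adjusted over the 6 comparisons of the gene p = 0.0763), with 8 of 10 libraries of 5 pg below the median of 10 ng.

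Leaving out 1 library at a time changed these calls as well. PRB1 passed in 14 of 19 such fits of 5 pg against 10 ng, and the adjusted p was 0.0567, 0.061, 0.188 and 0.0591 without 5 pg libraries 3, 4, 5 and 6 and 0.113 without 10 ng library 2. CPS1 passed in 9 of 19 fits; the adjusted p was 0.0553 without 5 pg library 9 and 0.05003 to 0.0835 without any 1 of the 9 libraries of 10 ng.

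In 1 ng against 10 ng, 2 of 5 genes again passed, both higher at 1 ng, where 36.3% of 3927 genes passed and 20.6% passed in that direction. PRB1 was higher by 0.63 ± 0.26 (SE, adjusted p = 0.0153), with all 8 libraries of 1 ng above the mean of 10 ng and 5 above its highest library. The exact permutation test of log2(CPM + 1) gave a difference of 1.10 (p = 5.76e-04, adjusted over the 6 comparisons of the gene p = 0.00345), and PRB1 passed in all 17 edgeR fits that left out 1 library. CPS1 was higher by 0.98 ± 0.46 (SE, adjusted p = 0.0435), but with adjusted p of 0.052 to 0.115 without 1 ng libraries 1 or 5 or 10 ng libraries 1, 4, 6, 7, 9 or 10. PEP4, PRC1 and APE3 had values of -0.13, -0.11 and -0.20 and did not pass, while on log2(CPM + 1) PRC1 was higher at 1 ng by 0.35 (exact permutation p = 0.0121, adjusted p = 0.0726). With the median fold change of 0.23 set to 0, the adjusted p was 0.062 for PRB1 and 0.0959 for CPS1, and within the libraries numbered above 4 it was 0.105 for PRB1.

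None of the 5 genes passed edgeR's test in the other 4 comparisons, and none passed that of DESeq2. In 100 pg against 1 ng, where 6.98% of 4670 genes passed, 3.49% in each direction, PRB1 had the largest value, 0.96 ± 0.45 (SE, unadjusted p = 0.0241, adjusted p = 0.158), and it was the only 1 of the 5 under an unadjusted p of 0.05 in edgeR's test. The exact permutation test of log2(CPM + 1) gave PRB1 a difference of 0.52 (p = 0.0758) and APE3 one of -0.58 (p = 0.0134, adjusted over the 6 comparisons of the gene p = 0.0802). Within libraries 1 to 4 of this pair PRB1 was higher at 100 pg by 1.41 (adjusted p = 0.00187) and PRC1 by 0.83 (adjusted p = 0.00615). In that fit 973 of the 3431 genes tested passed, 559 of them higher at 100 pg. In 20 pg against 100 pg, where 0.044% of 4546 genes passed, PRC1 had -1.24 ± 0.33 (SE, unadjusted p = 0.00245, adjusted p = 0.56), also the only 1 of the 5 under an unadjusted p of 0.05 in that test. On log2(CPM + 1) the difference for PRC1 was -0.27 (exact permutation p = 0.11), and APE3 had 0.41 (exact permutation p = 0.0457, adjusted p = 0.115). In 10 pg against 20 pg, where 0.0456% of 4388 genes passed, and in 5 pg against 10 pg, where 0% of 3443 passed, 0 of 5 genes had an unadjusted p under 0.05 with edgeR. In the last pair the permutation test gave PEP4 a difference of -2.28 (p = 0.0197, adjusted p = 0.0763), with 8 of 10 libraries of 5 pg below the median of 10 pg. In that pair 542 genes had an unadjusted p under 0.05 and DESeq2 called 99 genes. An F test over all 6 amounts, in which 37% of 4182 genes passed, called 0 of 5, with the lowest adjusted p for PRB1 (0.148) and 1 gene, PRB1, under an adjusted p of 0.05 with DESeq2's size factors (0.0102).

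**Figure D4:**
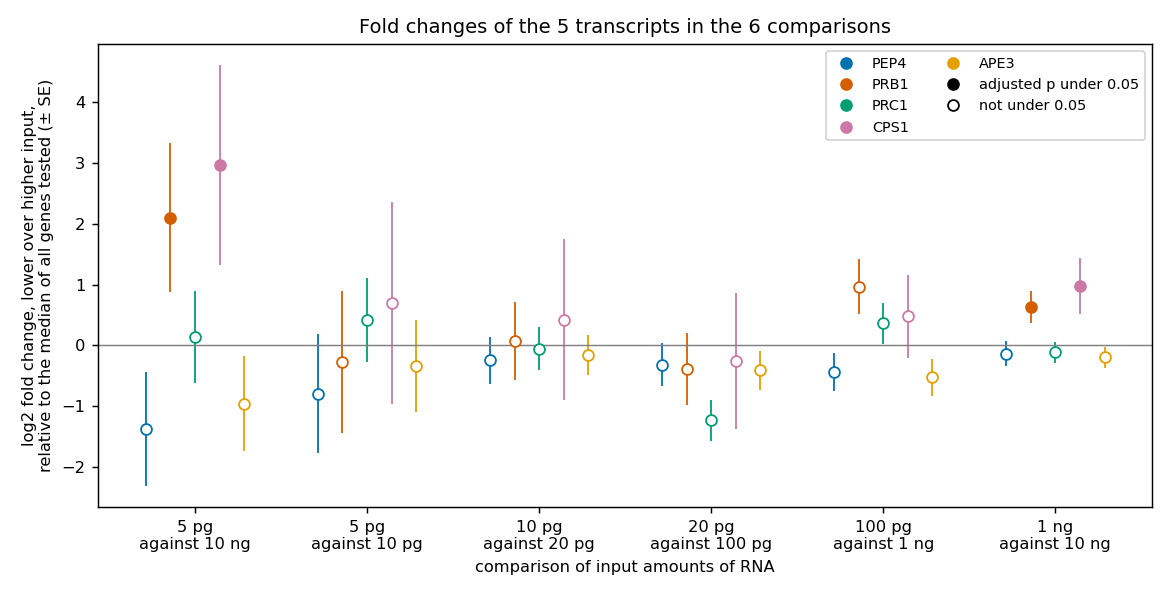
Log2 fold change of each transcript in the 6 comparisons, lower over higher input and relative to the median of all genes tested, with the SE as bars; filled points have an adjusted p under 0.05. PRB1 and CPS1 are filled in 5 pg against 10 ng, at 2.10 and 2.97, and in 1 ng against 10 ng, at 0.63 and 0.98; no other point is filled.

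Genes that act with the proteases were taken from 4 further lists. Of the inhibitors, PAI3 inhibits proteinase A and TFS1 carboxypeptidase Y, and in 5 pg against 10 ng 1 of the 2 tested, out of 3 listed, rose and 0 fell. TFS1 had 27.1 ± 23.4 CPM (SD, n = 10) at 5 pg and 2.84 ± 4.45 CPM (SD, n = 9) at 10 ng and was higher by 3.38 (adjusted p = 0.015), and the list had a median of 1.23. Of the other vacuolar hydrolases 4 of 9 rose and 0 fell, with a median of 1.75. They were APE1, aminopeptidase I (1004 ± 1737 against 135 ± 28.2 CPM), PPN1, a polyphosphatase (929 ± 989 against 128 ± 41.7 CPM), AMS1 and PFF1. AMS1, the vacuolar alpha-mannosidase, had 36.5 ± 93.1 against 4.25 ± 3.97 CPM, and PFF1, a membrane metalloprotease, 151 ± 438 against 2.04 ± 2.04 CPM. The filter on counts can be met by the 5 pg libraries alone, and genes this low at 10 ng have little room to be called lower at 5 pg. Of 9 vacuolar amino acid transporters 3 rose and 0 fell, with a median of 0.87. AVT3, AVT4 and ATG22, which move amino acids out of the vacuole, were higher at 5 pg by 2.65, 3.36 and 2.63. These medians stand beside a median of 0 for all genes tested, by construction, and beside the 23.1% of all genes that were higher. With the median fold change set to 0, a check added after the data were seen, 2 of these hydrolases, APE1 and PFF1, still rose, whereas 0 inhibitors and 0 transporters did. With spike-in totals as library sizes TFS1, AMS1 and AVT4 did not pass.

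The genes of sorting to the vacuole changed in both directions, 4 of 14 being higher at 5 pg and 3 lower, with a median of 0.97, beside 23.1% higher and 7.65% lower of all genes tested. PEP1, the receptor that carries the precursor of carboxypeptidase Y and is also called VPS10, had 525 ± 785 CPM (SD, n = 10) at 5 pg and 42.0 ± 65.8 CPM (SD, n = 9) at 10 ng, higher by 3.08 (adjusted p = 0.0151). PEP5, a subunit of the vacuolar tethering complexes, and VPS5 and VPS17, sorting nexins that work with retromer, were also higher, by 4.36, 2.58 and 2.43 (adjusted p = 0.0197, 0.0479 and 0.0454). Their 5 pg libraries were widely spread, with 148 ± 429, 95.5 ± 272 and 426 ± 1247 CPM (SD, n = 10). At 10 ng they had 6.39 ± 9.27, 6.90 ± 5.38 and 62.1 ± 41.4 CPM (SD, n = 9). VPS29, a retromer subunit, and PEP12 and VAM3, syntaxins of the endosome and the vacuole, were lower, with values of -5.59, -5.67 and -4.67. VPS29 had 3.82 ± 11.8 CPM (SD, n = 10) at 5 pg against 74.9 ± 22.8 CPM (SD, n = 9) at 10 ng. PEP12 had 1.88 ± 4.62 against 56.0 ± 24.5 CPM and VAM3 0.667 ± 1.42 against 12.3 ± 8.08 CPM. The filter on counts can be met by the libraries of either amount alone. Genes as low as PEP5 and VPS5 at 10 ng, or PEP12 and VAM3 at 5 pg, have little room to be called in the opposite direction. With the median fold change set to 0, the 3 lower genes and MRL1, a sorting receptor homologue, passed as lower and 0 passed as higher. With spike-in totals as library sizes VPS29, VPS5 and VPS17 did not pass, and PEP8, a retromer subunit also called VPS26, passed as higher.

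In 1 ng against 10 ng, 1 of 2 inhibitors fell (PAI3, -1.21), 2 of 8 other hydrolases rose (AMS1, 1.70, and APE1, 0.25), 2 of 19 sorting genes rose and 2 fell, and 3 of 9 transporters rose and 1 fell, where 20.6% of all genes tested were higher and 15.8% lower. The sorting genes were VPS35, a retromer subunit (1.31), and VPS34, the phosphatidylinositol 3-kinase (1.56), which were higher at 1 ng, and VPS29 (-0.98) and VPS21, an endosomal Rab GTPase (-1.11), which were lower. The retromer subunits VPS35 and VPS29 thus changed in opposite directions, also with the median fold change set to 0, though VPS29 did not pass with spike-in totals as library sizes. The transporters were ATG22 (1.19), AVT3 (1.201) and AVT4 (0.47), which were higher, and AVT7 (-0.79), which was lower. With the median fold change set to 0, APE1, VPS34 and AVT4 did not pass, and with DESeq2's size factors or spike-in totals PAI3, VPS21 and AVT7 did not. AVT4 did not pass with spike-in totals either. In 100 pg against 1 ng the transporters AVT6 and AVT3 were higher at 100 pg by 1.04 and 1.62, and 0 of 2 inhibitors, 0 of 11 other hydrolases and 0 of 19 sorting genes passed; neither transporter passed with the median fold change set to 0 or with spike-in totals.

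Among 1819 genes with a mean of at least 50 CPM over the 54 libraries, the nearest in pattern were named by the Spearman correlation of CPM across those libraries, which share protocol and depth range. They were GLC8 (0.73) and OYE2 (0.72) for PEP4, ADE3 (0.70) and MET6 (0.64) for PRB1, YSC84 (0.56) and TOS1 (0.55) for PRC1, SKI2 (0.69) and AIM9 (0.68) for CPS1, and UBI4 (0.71) and ECM3 (0.69) for APE3. Correlations were also taken after subtraction of each amount's mean log2(CPM + 1), with the deviations of all 54 libraries ranked together. They were 0.48 for GLC8, 0.48 for ADE3, 0.56 for YSC84, 0.69 for SKI2 and 0.67 for UBI4.

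The 5 H6P libraries were sequenced to 6407797 to 14337575 gene counts. PEP4 had 350, 786, 948, 538 and 1226 CPM in libraries 11, 12, 14, 15 and 16. PRB1 had 455, 260, 66.5, 16.3 and 0.209 CPM in the same order, the last from 3 counts, and CPS1 had 152, 248, 62.6, 0 and 79.8 CPM. PRB1 was thus spread from 3 to 2915 counts within these deep libraries. PRC1 had 840, 1177, 931, 1349 and 915 CPM and APE3 1191, 1618, 1431, 1325 and 911 CPM, and the ratio of PRC1 to APE3 per kilobase was 0.712, 0.734, 0.657, 1.03 and 1.01. The summed level of the 5 genes ranged from 2988 to 4088 CPM.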

How the data were processed

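The authors deposited raw counts per gene, 1 library per file; reads were aligned with STAR 2.5.2 to R64 without trimming, and uniquely mapped reads were counted. HTSeq and RSEM 1.2.31 also appear in the submitters' notes. The protocol primes with oligo-dT, favours 3′ ends, marks no strand and has no molecular identifiers, so counts include PCR copies. The 92 spike-ins and the 5 summary lines of each file were left out of totals. CPM is scaled to the gene total of a library. Names came from the R64 reference annotation (6061 of 6420 identifiers matched). A gene was tested if 20% or more of the compared libraries held 5 or more counts, with edgeR 4.0.16 (TMM, quasi-likelihood, R 4.3.3) on the compared amounts only. The SE is the fold change over the root of its F statistic. Single genes were also tested by two-sided permutation (scipy 1.17.1) on log2(CPM + 1), exact where a group held fewer than 10 libraries. Code was tested on simulated data. No libraries of a group were identical or within sampling noise. The members, lists and the rule for named genes (all 5 members, listed genes past the threshold and the 2 nearest in pattern per member) were chosen with earlier results of these data known. DESeq2 1.42.0, other scalings, filters, library sets, the replicate block and leaving out libraries were the alternatives. Same-numbered libraries were not treated as pairs in the main fits, and the replicate block gives the alternative. Their deviations correlated with a median of 0.0017 in 5 pg against 10 ng, but more closely at larger inputs. In 1 ng against 10 ng the median was 0.166, against 0.0036 for other numbers, and 5 of 8 libraries correlated best with their own number. In 100 pg against 1 ng it was 0.179 against -0.017, with 5 of 7.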

Additional observations from a re-analysis of the deposited data

Results flagged for a closer look

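In 7 of 30 groups of libraries of a member and an amount, 1 library stood farther from the rest than Dixon's 95% critical value, which chance passes in about 1 of 20 groups. They were PEP4 at 20 pg (library 10, 1515 CPM against 852 in the next), PRB1 at 10 ng (library 1, 120 against 75.7), PRC1 at 5 pg (library 1, 15887 against 5341) and at 10 pg (library 2, 8269 against 3972), and CPS1 at 5 pg (library 9, 877 against 441), 20 pg (library 8, 583 against 53.9) and 100 pg (library 5, 206 against 75.6). Each was the highest of its group. Skewed values such as these pass this measure more often than symmetric ones.

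In the H6P libraries, which entered no comparison, each transcript was present in at least 4 of 5, with medians over 5 libraries of 8280 counts for PEP4, 653 for PRB1, 12398 for PRC1, 976 for CPS1 and 14056 for APE3. CPS1 had 0 counts in library 15 and PRB1 had 3 in library 16.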

How the results depend on the processing

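In 5 pg against 10 ng, where 2 of the 5 genes passed, 0 passed with the median fold change set to 0, with spike-in totals as library sizes, without a filter, with the replicate block or in libraries 1 to 4, 1 passed with the stricter filter, in 1 fit over all amounts or in the libraries above 4, 3 with DESeq2 (within 1.5 times), and 0 to 2 with 1 library left out. In libraries 1 to 4 PRB1 had the opposite sign (-0.45) and CPS1 had almost no difference (-0.0019), and neither passed. In 1 ng against 10 ng, again 2 in the report, 0 passed with the median set to 0, in 1 fit over all amounts or in the libraries above 4, 1 without a filter, with the replicate block or in libraries 1 to 4, and 1 to 2 with 1 library left out; with the stricter filter PRC1 turned from -0.11 to 0.27 (adjusted p = 0.0454). In 100 pg against 1 ng libraries 1 to 4 gave 2, where 973 of 3431 genes tested passed. Over all 6 amounts, 1 gene passed with DESeq2's size factors, without a filter or with the stricter filter, and 2 with DESeq2. Of all 509 recomputed fold changes, with or without a call, 61 changed sign where no call was involved and 3 where a call was. Over all genes tested, the calls were 78 to 1582 (1074 in the report) for 5 pg against 10 ng, 0 to 1042 (0) for 5 against 10 pg, 0 to 301 (2) for 10 against 20 pg, 0 to 3 (2) for 20 against 100 pg, 0 to 973 (326) for 100 pg against 1 ng and 0 to 1581 (1426) for 1 against 10 ng. With the replicate block, the split in 5 pg against 10 ng was 19 higher and 588 lower; no same-numbered pair there correlated above 0.1, and in no comparison did every library correlate best with its own number. Of 60 levels recomputed with TMM-scaled totals or without glycolytic genes in the total, 23 moved by more than 1 SD. At equal depth CPS1 was expected in 3.77 libraries at 20 pg and 2.41 at 10 ng, against 8 and 8 detected. The causes were not tested.

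Limits: between 5 and 10 pg and between 10 and 20 pg the larger SD exceeded the difference of the mean levels for all 5 genes, and depth limits the detection of CPS1. Intervals from counts were not given because PCR copies are not independent molecules.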

Other observations

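The level of CPS1 differed between the sets of library numbers. Its mean in the libraries numbered above 4 was higher than in those numbered 1 to 4 at 6 of 6 amounts, with 275 ± 352 against 6.71 ± 12.5 CPM at 5 pg, 188 ± 167 against 7.71 ± 9.45 CPM at 10 pg and 113 ± 231 against 7.85 ± 7.52 CPM at 20 pg. At 100 pg the means were 114 ± 80.8 against 10.4 ± 10.7 CPM, at 1 ng 53.1 ± 30.6 against 15.6 ± 16.6 CPM and at 10 ng 14.03 ± 7.14 against 6.91 ± 5.36 CPM, and only at 100 pg did the ranges stay apart. APE3 was higher in the set above 4 at 5 of 6 amounts, PEP4 and PRC1 at 4, and PRB1 at 2. The labels do not say what the numbers stand for, and the split was not tested.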
